A study of Mus musculus with 24 samples.

Results

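Forelimb buds of CD1 mouse embryos at gestation day 13 were cultured for 24 h with 1 µM tert-butylphenyl diphenyl phosphate (BPDP), an organophosphate ester used to slow burning and to soften plastics, and their RNA was compared with that of buds cultured for 24 h in the solvent dimethyl sulfoxide (DMSO) alone. The comparison took every library of these groups, 4 with 1 µM BPDP and 4 controls, 8 of the 24 in the series. The 8 libraries held 14887622 to 19972395 counts each. The remaining libraries came from buds given 10 µM BPDP for 24 h, or DMSO, 1 µM or 10 µM BPDP for 3 h. The buds were whole tissue grown outside the embryo, so each library can mix cartilage, muscle, skin, vessel and blood cells, and a lower level can mean fewer cells of a type or less RNA per cell, which cannot be told apart. The labels do not state whether the 4 replicates of a group are different litters or culture dishes. The p-values therefore reflect only how far these samples differ from each other, which may be technical.

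Hedgehog proteins are secreted signals that bind Patched receptors on the receiving cell. Binding frees Smoothened, a membrane protein that acts through Sufu and the Gli transcription factors. Gli1, Ptch1 and Hhip are themselves transcribed when the pathway is on, so their RNA is widely read as its output. In the limb, Sonic hedgehog from the posterior margin patterns the digits, and later Indian hedgehog from maturing chondrocytes, the cells of cartilage, paces their enlargement (hypertrophy) through parathyroid hormone-related protein and drives bone formation in the surrounding perichondrium.

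Of 15578 genes tested, among 24054 in the table, 16 passed at an adjusted p under 0.05 (0.103%), 5 higher (0.0321%) and 11 lower (0.0706%) with 1 µM BPDP. An unadjusted p under 0.05 was found for 1092 of the 15578 genes. Log2 fold changes lay below 0 for 8055 of all genes tested and above 0 for 7523. The values of 15 called genes are described here. The hedgehog output genes Gli1, Ptch1 and Hhip fell. The gene of the ligand Indian hedgehog (Ihh) rose, as did those of Pcsk6, a protease that activates secreted precursor proteins, of Cytl1 and Matn3, both cartilage products, and of Gpnmb, a membrane glycoprotein. Also lower were Runx3, Runx2, Batf3, Foxc2 and Mycl, which code for transcription factors, Bcl2, an inhibitor of cell death, and Clic6, a member of the chloride intracellular channel family. At least a 2-fold change was seen in 11 of the 15, and all 15 moved one way in all 4 replicate pairs. The groups did not overlap for 12 of the 15, against 3.48% of all genes tested. The 15 were chosen by a test of these same pairs, so such traits follow largely from that choice and are no separate evidence. Levels are given as CPM, a gene's read count scaled to the library's total. The median gene had a log2 fold change of -0.0075 and the median absolute log2 fold change was 0.123.

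**Figure D1:**
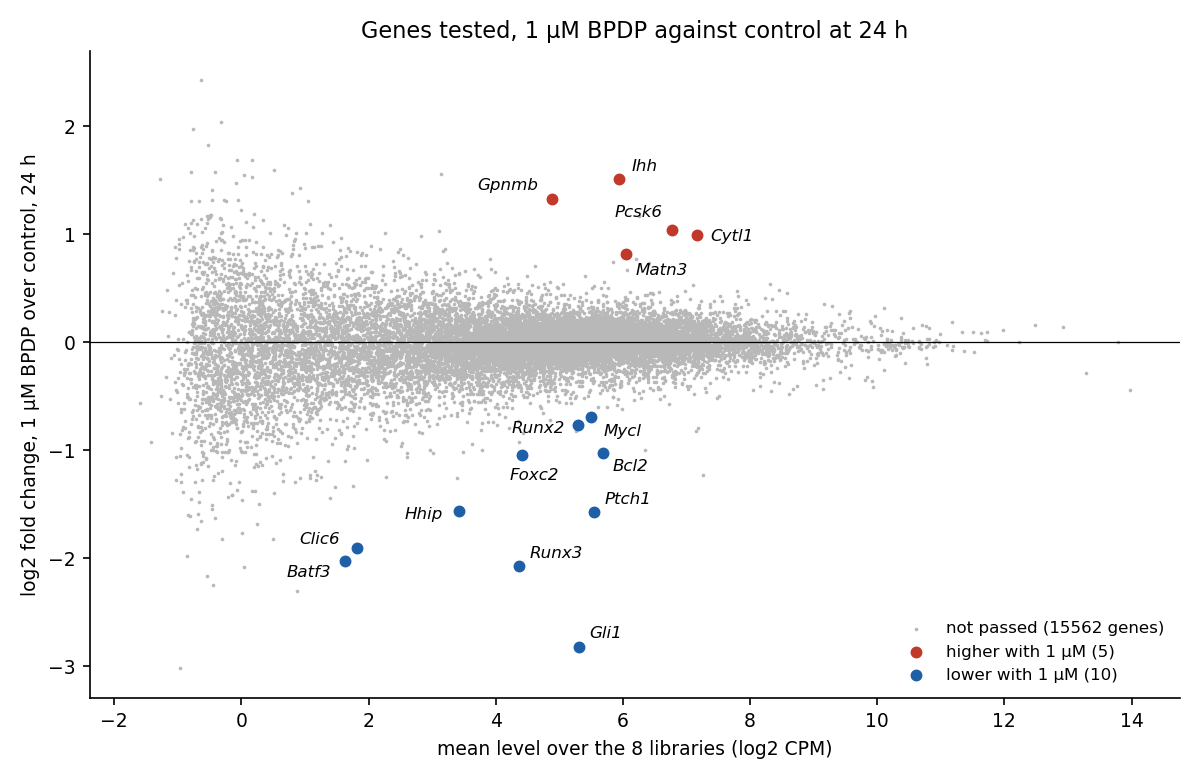
Each point is a gene tested, with its mean level over the 8 libraries (log2 CPM) on the horizontal axis and its log2 fold change with 1 µM BPDP over control at 24 h on the vertical axis. Red and blue points are the 15 called genes described here, higher and lower, and Gli1 at -2.82 and Ihh at 1.51 lie at the outer ends of the called genes.

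The start regions of Ptch1, the gene of the main receptor, called lower, and Ihh, the ligand called higher, are shown because these genes stand at the receiving and sending ends of the pathway. Each is the 250 bases before the start of the RefSeq transcript (GRCm38.p6), at chr13:63565736-63565985 and chr1:74951673-74951922, both read from the minus strand, 5′ to 3′.
Ptch1: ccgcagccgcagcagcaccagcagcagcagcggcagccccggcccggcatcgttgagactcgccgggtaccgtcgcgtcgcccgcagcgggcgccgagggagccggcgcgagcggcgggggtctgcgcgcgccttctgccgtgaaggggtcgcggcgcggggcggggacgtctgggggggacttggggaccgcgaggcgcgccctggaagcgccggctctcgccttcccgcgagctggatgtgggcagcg
Ihh: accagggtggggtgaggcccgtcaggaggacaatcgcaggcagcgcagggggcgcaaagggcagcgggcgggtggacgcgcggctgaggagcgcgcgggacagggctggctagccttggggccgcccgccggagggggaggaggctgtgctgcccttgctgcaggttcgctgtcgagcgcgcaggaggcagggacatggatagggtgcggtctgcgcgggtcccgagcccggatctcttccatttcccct
No letter is in capitals because neither window held the Gli motif that was searched, GACCACCCA, on either strand. RefSeq windows of 300 bases (250 before and 50 after the start) were found for 12 of the 15 called genes described here, 13 windows in all, and 0 of the 13 held this motif, against 83 of 32851 windows of all genes (0.253%). The shorter GACCACC, which the longer motif contains, was in 919 of the 32851 (2.8%) and in 1 of the 13, that of Mycl, 53 bases before the start. GACCACCCA is so rare that most sets of 13 windows would lack it, so the 0 of 13 cannot show fewer matches in these genes. These matches describe letters in short windows and carry no information on Gli binding elsewhere. The genes with no window in the table were Gli1, Foxc2 and Clic6.

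Gli1, the transcription factor whose gene is a direct hedgehog target, lies on chromosome 10 (mm10, 127329889 to 127341589, minus strand). It had 97.9, 137.5, 95.2 and 91.8 CPM in control replicates 1 to 4, and 33.9, 12.5, 9.88 and 11.4 CPM in the same replicates with 1 µM. Every treated library lay below every control, and treated replicate 1 kept a level above the other 3. The log2 fold change was -2.82 (SE 0.301, 95% interval -3.52 to -2.12, adjusted p = 0.0342), a 7.05-fold lower level. Within pairs it was -1.57 in replicate 1 and -3.32, -3.36 and -3.03 in replicates 2 to 4. This call depended on the fit: it was kept in 7 of 14 alternatives, with adjusted p = 0.245 without the replicate block (up to 0.576 over all of them). Of the 4 fits that left out a replicate, only that without replicate 1 kept it (-3.25, adjusted p = 2.29e-05). Without replicates 2, 3 and 4 the adjusted p was 0.363, 0.541 and 0.251. The span of Arhgap9 overlaps that of Gli1 on the opposite strand, at a mean of 65.9 counts against 1131.5. Whether their exons overlap was not checked, and the labels do not say whether strand was kept. Reads of Arhgap9 counted for Gli1 are therefore not excluded.

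Ptch1, the main receptor and a brake on the pathway, lies on chromosome 13 (63511533 to 63565520, minus strand). Its level was 93.3, 91.3, 64.7 and 74.2 CPM in controls and 35.3, 25.9, 23.3 and 25.4 CPM with 1 µM, so the lowest control was well above the highest treated library. It fell by 1.57 on the log2 scale (SE 0.102, adjusted p = 0.000146), with pairs between -1.69 and -1.45. Hhip, a membrane protein that binds and traps hedgehog ligands (chromosome 8, 79966115 to 80058006, minus strand), had 10.1, 28.3, 18 and 20.6 CPM in controls. With 1 µM it had 5.70, 5.04, 6.32 and 7.95 CPM, below all controls. Its fall was 1.56 (SE 0.224, adjusted p = 0.0352), with control replicate 1 the lowest control. Over the 14 alternatives Ptch1 kept its call in all, and Hhip in 8 (adjusted p up to 0.229). Of the 4 fits that left out a replicate, 1 kept the call of Hhip.

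Ihh (chromosome 1, 74945315 to 74951672, minus strand) moved opposite to these genes. It had 26.9, 49.1, 35.6 and 35.5 CPM in controls and 95.8, 101.2, 115.4 and 102.8 CPM with 1 µM, with no overlap and a narrow spread among treated libraries. The log2 fold change was 1.51 (SE 0.118, 95% interval 1.25 to 1.77, adjusted p = 0.000609), 2.85-fold, and the call was kept in all 14 alternatives. Shh, the gene of the Sonic hedgehog ligand, was near the limit of detection. It had 0.293, 0.164, 0.205 and 0.200 CPM in controls and 1.96, 1.08, 1.01 and 0.890 CPM with 1 µM, and the groups did not overlap, but the test was not passed (2.43, SE 0.487, adjusted p = 0.237). Corrected for gene length (RPKM), Ihh was at 14.9 in controls and 42 with 1 µM, and Shh at 0.080 and 0.458. The other ligand and release genes tested, Scube2 (0.69, adjusted p = 0.434) and Scube3 (0.24, adjusted p = 0.805), which help to release the ligand, and 3 further genes, did not pass. The desert hedgehog gene Dhh was under the count filter, at a mean of 4 counts in controls and 4.25 with 1 µM.

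Apart from Gli1, the machinery between receptor and target genes did not pass the test. Smo, which codes for Smoothened, had 248.7, 285.7, 275.8 and 287.7 CPM in controls and 270.1, 240.9, 267.5 and 264.9 CPM with 1 µM. Its log2 fold change was -0.09 with a 95% interval of -0.31 to 0.14. Gli2, the main activator, had -0.02 (interval -0.25 to 0.22) and Sufu, the inhibitor of Gli factors, 0.02 (interval -0.19 to 0.24). Gli3, mainly a repressor, had 0.38 (interval 0.15 to 0.62, adjusted p = 0.399) and overlapping groups. The co-receptors Cdon (0.41, adjusted p = 0.385), Gas1 (0.15, adjusted p = 0.907) and Boc (0.11, adjusted p = 0.904) did not pass, nor did Evc2, a ciliary protein of the pathway (-0.26, adjusted p = 0.645). By list, 1 of 7 tested ligand and release genes rose, 2 of 6 receptor genes and 1 of 12 transducer genes fell. Over all genes tested 0.103% were called. Of 6 tested target genes 3 fell, with a list median of -1.16 against -0.0075 over all genes, and these 3 are the same Gli1, Ptch1 and Hhip that the receptor and transducer lists hold. The remaining targets were Pthlh, the gene of parathyroid hormone-related protein (-0.76, SE 0.165, adjusted p = 0.284, groups not overlapping), Foxf2 (0.18, adjusted p = 0.890) and 1 further forkhead gene at a low level, and none of them passed. Foxf1 was under the count filter, with means of 19 and 5.75 counts, and so was Lrp2, with 2 and 0 counts.

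**Figure D2:**
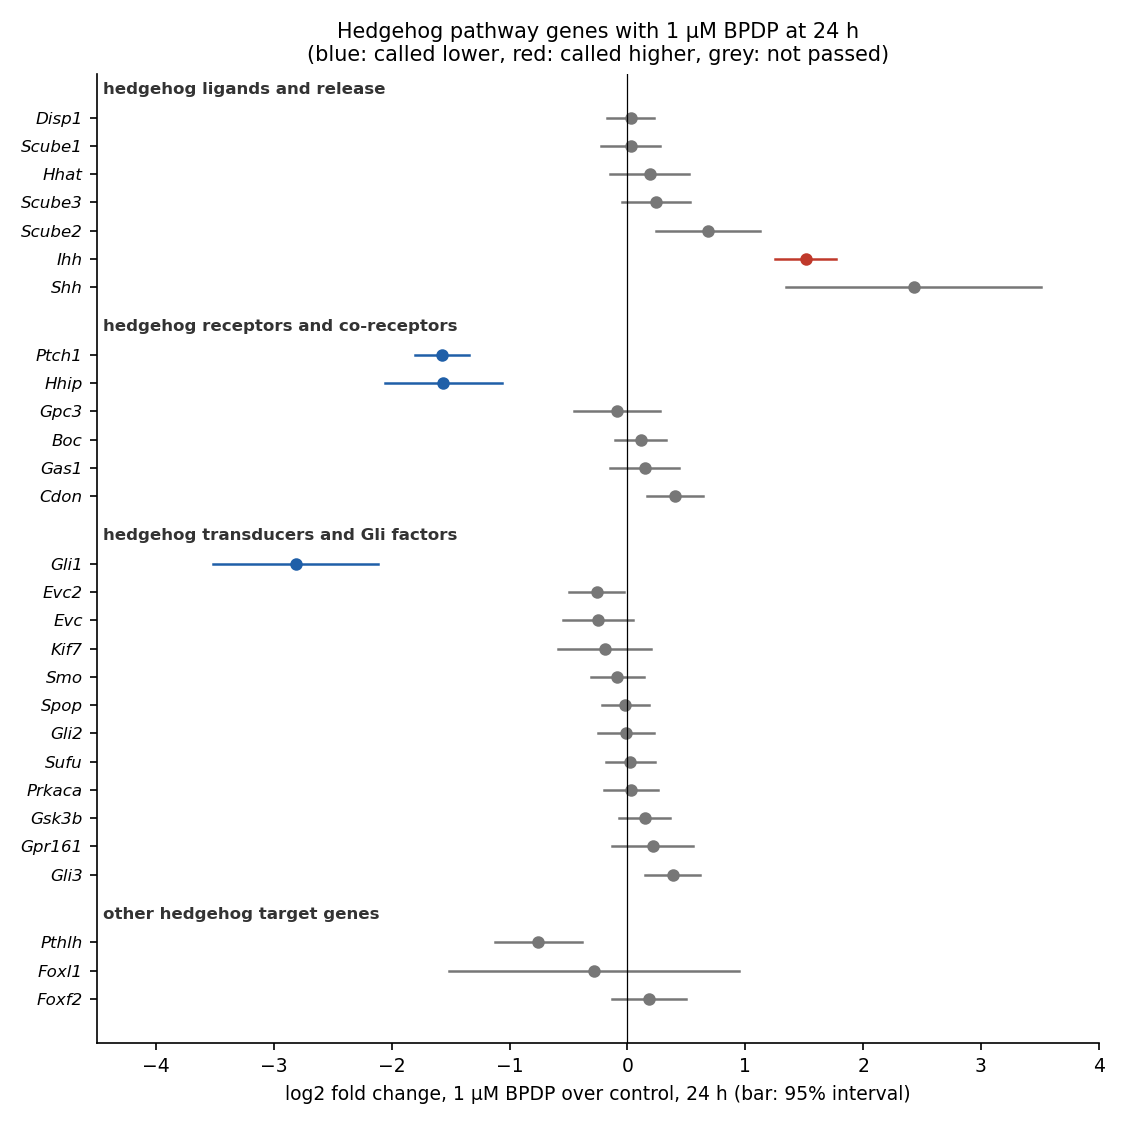
Points are log2 fold changes with 1 µM BPDP over control at 24 h (horizontal axis) and bars their 95% intervals, for the hedgehog genes tested, grouped by role, with each gene shown once. Gli1, Ptch1 and Hhip (blue) lie between -2.82 and -1.56, Ihh (red) lies at 1.51, and the intervals of Smo, Gli2 and Sufu span 0.

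Both genes of the Runx family that act in chondrocyte maturation and bone formation fell. Runx3 (chromosome 4, 135120652 to 135177990, plus strand) had 58.6, 34.9, 38.4 and 38.1 CPM in controls and 13.6, 9.34, 9.03 and 8.79 CPM with 1 µM. The fall was 2.07 (SE 0.130, adjusted p = 0.000146), and replicate 1 was the highest library in each group. Runx2 (chromosome 17, 44495987 to 44814797, minus strand) had 54.8, 61.0, 42.1 and 47.3 CPM against 29.2, 37.1, 27.9 and 27.6 CPM. Its fall of 0.76 (SE 0.110, adjusted p = 0.0352) did not keep its call in any of the 4 fits that left out a replicate (adjusted p up to 0.432 over all alternatives). The span of Supt3 overlaps that of Runx2 on the opposite strand (mean 334.0 counts against 737.6). Whether their exons overlap was not checked, so reads of one gene counted for the other are not excluded. Runx2 and Runx3 are also listed as hypertrophic chondrocyte genes, a list of 16 in which 1 gene was called higher (Ihh) and these 2 lower, with a median of 0.15. Of the 16 genes 10 had an unadjusted p under 0.05, and the largest rise, 2.04, was in a gene that did not pass. Over all 15578 genes tested 0.103% were called, and 1092 had an unadjusted p under 0.05.

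Other transcription factors fell as well. Foxc2, a forkhead factor of mesenchyme and vessels (chromosome 8, 121116171 to 121118895, plus strand), went from 32.6, 36.1, 27.4 and 26.4 CPM to 17.9, 12.6, 13.4 and 16.1 CPM (-1.04, SE 0.141, adjusted p = 0.0342). Batf3, an AP-1 family factor best known from dendritic cells (chromosome 1, 191098414 to 191108943, plus strand), went from 7.90, 6.01, 4.45 and 5.76 CPM to 1.79, 1.95, 1.12 and 1.17 CPM (-2.02, SE 0.261, adjusted p = 0.0295). In both, no treated library reached the control range, and each kept its call in 1 of the 4 fits that left out a replicate (adjusted p up to 0.171 for Foxc2 and 0.229 for Batf3). Mycl, a Myc family factor (chromosome 4, 122995652 to 123002485, plus strand), had 77.6, 39.4, 63.4 and 54.9 CPM in controls and 44.1, 22.8, 46.3 and 35 CPM with 1 µM. Here the groups overlapped, each pair fell, and the change was -0.69 (SE 0.104, adjusted p = 0.0480), a call kept in 5 of 14 alternatives (adjusted p up to 0.761). No fit that left out a replicate kept it. Foxd2, a further forkhead gene named here after its values were seen, did not pass (-0.94, adjusted p = 0.178).

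Bcl2, which protects cells from apoptosis (chromosome 1, 106538178 to 106714274, minus strand), had 55.1, 69.2, 85.3 and 84.4 CPM in controls and 40.2, 33.3, 38.7 and 32.8 CPM with 1 µM. It fell by 1.02 (SE 0.145, adjusted p = 0.0352), with pair differences from -0.50 in replicate 1 to -1.39 in replicate 4. Among 18 p53 and cell death genes it was the only one that passed. Clic6 (chromosome 16, 92485736 to 92541243, plus strand) was a low gene, with 4.80, 6.12, 7.32 and 8.71 CPM in controls and 2.07, 1.21, 1.49 and 2.56 CPM with 1 µM (-1.90, SE 0.265, adjusted p = 0.0352). The groups of Bcl2 and Clic6 did not overlap. Bcl2 kept its call in 9 of 14 alternatives (adjusted p up to 0.294) and Clic6 in 10 (adjusted p up to 0.251), each in 1 of the 4 fits that left out a replicate.

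The genes that rose beside Ihh include products of cartilage. Pcsk6 (chromosome 7, 65861734 to 66050340, plus strand) had 84.7, 83.8, 69.8 and 67.2 CPM in controls and 169.3, 161.9, 150.9 and 151.2 CPM with 1 µM. All pairs rose by a like amount, 0.95 to 1.14, and the change was 1.04 (SE 0.0915, adjusted p = 0.00112). Cytl1, a small secreted protein of cartilage (chromosome 5, 37735519 to 37739820, plus strand), had 78.4, 107.7, 105.1 and 119.7 CPM against 178.7, 234.1, 204.2 and 203.4 CPM (0.99, SE 0.111, adjusted p = 0.00929). Neither gene's groups overlapped. Matn3, the matrix protein matrilin-3 (chromosome 12, 8947929 to 8972028, plus strand), varied widely between replicates. It had 47, 100, 28.6 and 43.8 CPM in controls and 104.3, 141, 58.5 and 68.4 CPM with 1 µM, so the groups overlapped while each pair rose (0.82, SE 0.113, adjusted p = 0.0352). Gpnmb (chromosome 6, 49036518 to 49058182, plus strand) had 24.4, 23.7, 13.6 and 15.1 CPM against 55.5, 77.2, 21.8 and 51.4 CPM. Treated replicate 3 fell within the control range, and the change was 1.33 (SE 0.192, adjusted p = 0.0352). Pcsk6 kept its call in all 14 alternatives, Cytl1 in 13 (adjusted p up to 0.05002), and Matn3 and Gpnmb in 8 each (adjusted p up to 0.904 and 0.585). Of the 4 fits that left out a replicate, only that without replicate 3 kept Matn3 and Gpnmb.

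**Figure D3:**
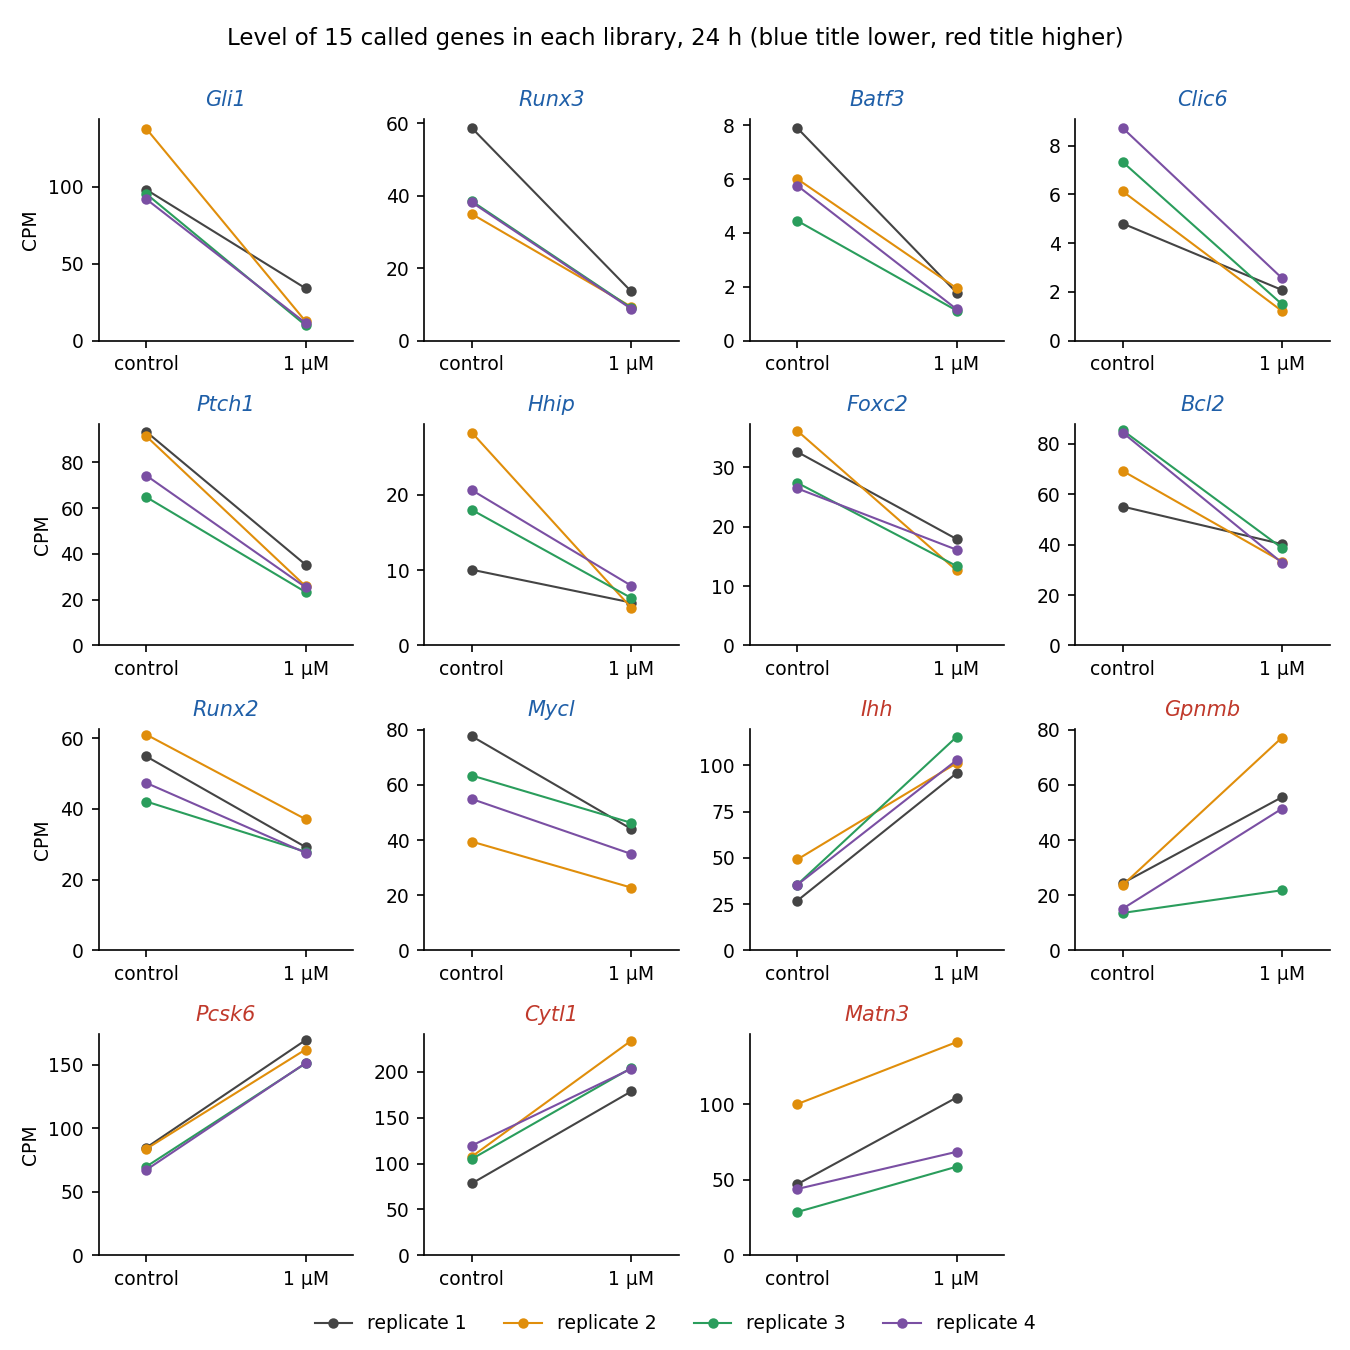
Each panel shows 1 of the 15 called genes described here, with its level in CPM on the vertical axis (from 0) in control and 1 µM BPDP libraries at 24 h, and a line joining the libraries that share a replicate number. All 4 lines fall in the panels with blue titles and rise in the 5 with red titles, and Matn3, Gpnmb and Mycl are the panels where the groups overlap.

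In the list of cartilage genes, chosen with earlier results of these data known and without Cytl1, Matn3 alone passed in the main comparison. Of 21 tested, 1 was called higher and none lower, 17 had log2 fold changes above 0 and the median was 0.26. An unadjusted p under 0.05 was found for 9 of the 21, against 1092 of all 15578 genes tested. With no count filter 2 of the 21 were called higher, with DESeq2 3 and with replicates 3 and 4 alone 11. With no replicate block, or with replicate 1, 2 or 4 left out, none was called. Susd5, a cell surface protein listed with cartilage, had 100.8, 137.2, 106.7 and 114.2 CPM in controls and 143.0, 187.9, 161.3 and 174.4 CPM with 1 µM (0.53, adjusted p = 0.108). Sox9, the master factor of cartilage (0.27, adjusted p = 0.793), and Col2a1, its main collagen (0.16, adjusted p = 0.960), did not pass, and neither did Aldh1a2, which makes retinoic acid (0.78, adjusted p = 0.168), or Cyp1b1, an oxidative enzyme (0.62, adjusted p = 0.187). In the list of 14 osteoblast and perichondrium genes Runx2 alone passed, and 5 had an unadjusted p under 0.05. No gene passed among 16 joint and tendon genes (7 with an unadjusted p under 0.05), with Wnt9a, a joint signal, at -0.69 (adjusted p = 0.237), among 23 muscle genes (3 with an unadjusted p under 0.05) or among 36 limb patterning genes (6 with an unadjusted p under 0.05).

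No cell cycle gene of the lists passed in the main comparison. Of all 15578 genes tested there, 8055 lay below 0 and 1092 had an unadjusted p under 0.05. Of 22 genes of G2/M and mitosis, 22 had log2 fold changes below 0, with a median of -0.36 and a range of -0.61 to -0.22. The edgeR test called 0 of them, with 18 at an unadjusted p under 0.05, limma-voom called 0 and DESeq2 called 1. With no count filter 2 were called lower, and with all 12 libraries of 24 h 1. With replicates 3 and 4 alone 681 of 15770 genes passed, and 6 of the 22 were called lower. That fit had 1 residual degree of freedom, against 3 in the main fit, so its spread is poorly estimated and its calls are uncertain. The summed level of the 22 genes was 1151, 1206, 1110 and 1244 CPM in controls and 961.2, 804.0, 1010 and 918.0 CPM with 1 µM, so the groups did not overlap. Top2a, a topoisomerase of dividing cells, had a mean of 184 ± 13.5 CPM in controls and 135 ± 12 CPM with 1 µM (SD, n = 4 each; -0.46, adjusted p = 0.237), and the mitotic motor Kif11 had -0.48 (adjusted p = 0.284). All 18 G1/S and replication genes were also below 0 (median -0.25, 5 with an unadjusted p under 0.05; 5 of them were above 0 with replicates 1 and 2 alone), among them Mcm7 (-0.38, adjusted p = 0.369) and Cdc45 (-0.46, adjusted p = 0.452). Their summed levels overlapped, at 1008 to 1289 CPM in controls and 981.8 to 1107 CPM with 1 µM. With replicates 3 and 4 alone 7 of these 18 genes were called lower. Of 12 D-type cyclin and cell cycle inhibitor genes 10 lay below 0 and 2 above, 3 with an unadjusted p under 0.05. Ccnd1, the gene of cyclin D1, had 152.0, 178.5, 202.2 and 219.5 CPM in controls and 122.6, 96.3, 97.2 and 112.7 CPM with 1 µM. It missed the threshold with groups that did not overlap (-0.82, SE 0.130, adjusted p = 0.0684), as did Kbtbd11, named after its values were seen (-0.84, adjusted p = 0.0508). Of the 14 alternatives, 6 called Ccnd1 (adjusted p up to 0.520 over all) and 5 called Kbtbd11 (adjusted p up to 0.428). Mycn had -0.73 (adjusted p = 0.452).

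Stress and metabolic lists held no called gene in the main comparison. Of all 15578 genes tested, 8055 lay below 0, 7523 above 0 and 1092 had an unadjusted p under 0.05. The 19 genes of the integrated stress response had a median of -0.03 (3 with an unadjusted p under 0.05), with the cystine transporter Slc7a11 at 0.53 (adjusted p = 0.368). Of 25 cholesterol synthesis genes 24 lay above 0, with a median of 0.22 and 8 at an unadjusted p under 0.05, among them Insig1 (0.31) and Hsd17b7 (0.42). For the aryl hydrocarbon receptor target Ahrr the value was 1.02 (adjusted p = 0.335), and for the retinoic acid enzyme Cyp26a1 -1.23 (adjusted p = 0.385). All 14 Notch genes tested lay below 0 (median -0.20, 3 with an unadjusted p under 0.05). Hypoxia and glycolysis genes lay below 0 in 23 of 24 cases (median -0.43, 1 with an unadjusted p under 0.05), but their summed level was 10250, 3760, 4199 and 7001 CPM in controls and 4205, 4448, 3608 and 5504 CPM with 1 µM. Control replicate 1 was the highest library, and without replicate 1 the split was 14 below and 10 above, with a median of -0.04. With replicates 3 and 4 alone, where 681 of 15770 genes passed, 9 of these 24 genes were called lower. In that fit 1 of the 19 integrated stress response genes was called higher and 1 lower.

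Lists of other cell types were compared in the same way, beside 1092 of all 15578 genes at an unadjusted p under 0.05. None had a called gene in the main comparison. The tissue matched its label: Tbx5, the factor of the forelimb, was at 237 CPM in controls and 254 CPM with 1 µM, and muscle genes summed to 3673 to 5571 CPM in controls and 5244 to 6196 CPM with 1 µM. Macrophage genes summed to 244.4 to 317.9 CPM in controls and 227.4 to 324.5 CPM with 1 µM, with a median of 0.0067 over 17 genes, 2 at an unadjusted p under 0.05. With replicates 3 and 4 alone, where 681 of 15770 genes passed, 3 of the 17 were called lower. Cx3cr1, a receptor of tissue macrophages, had -0.59 in the main comparison (adjusted p = 0.353). Endothelial genes had a median of -0.21 (16 genes, 4 at an unadjusted p under 0.05), with the vessel receptor Flt1 at -0.77 (adjusted p = 0.171). Epidermal genes had a median of -0.15 (19 genes, 6 at an unadjusted p under 0.05) and summed levels of 2102 to 4700 CPM and 1826 to 4000 CPM. Erythroid genes had a median of -0.03 (10 genes, 0 at an unadjusted p under 0.05). None of the macrophage, endothelial, epidermal and erythroid genes was at 0 in all 8 libraries. Whether these levels bear on the called genes was not tested.

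**Figure D4:**
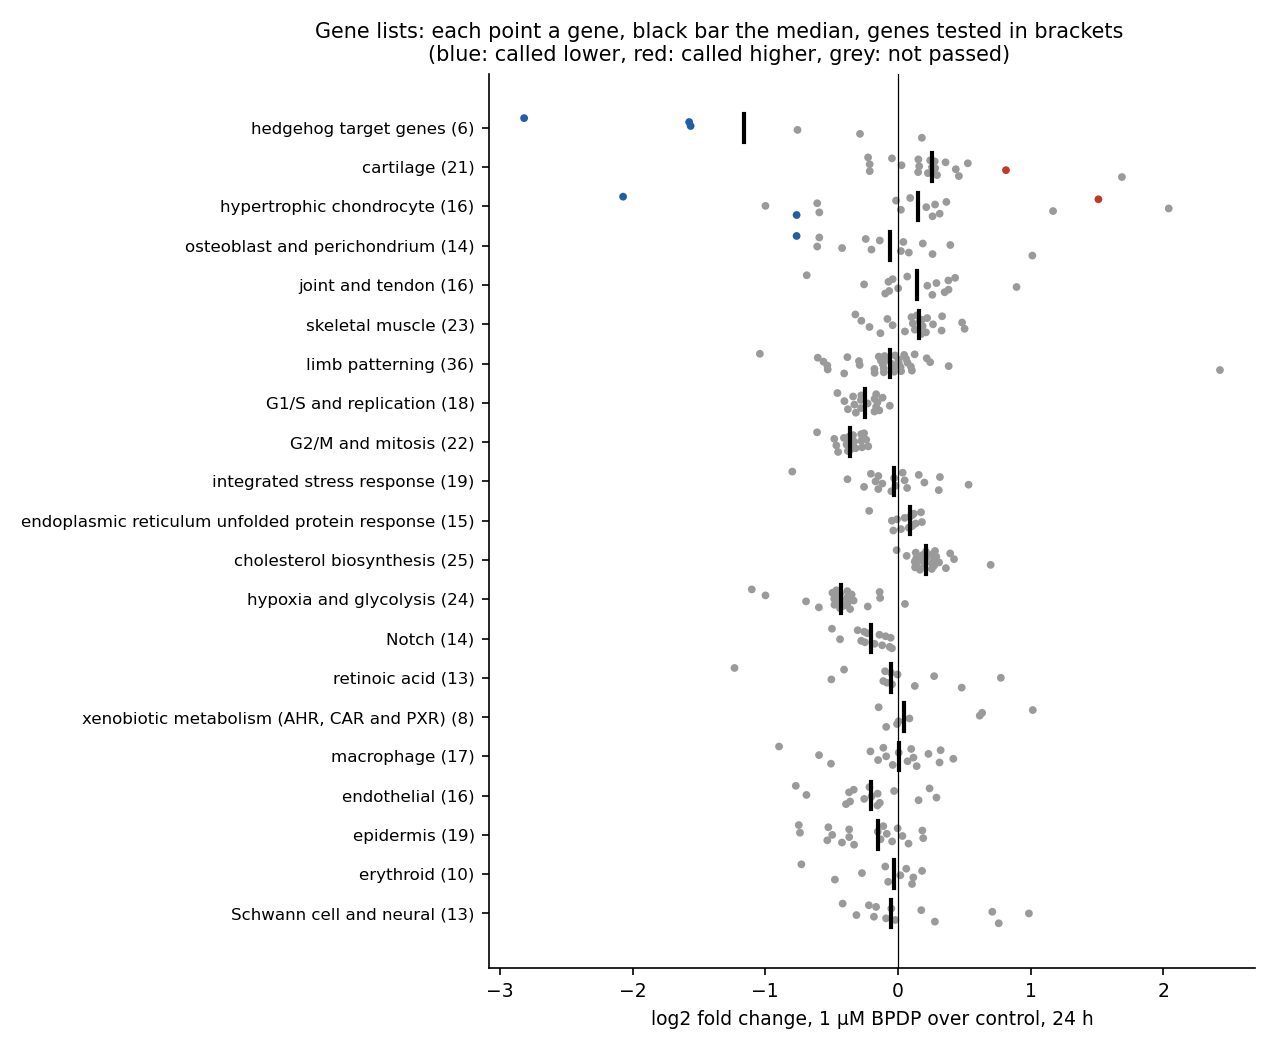
Each point is a tested gene of a list, placed at its log2 fold change with 1 µM BPDP over control at 24 h (horizontal axis), with the list median as a black bar and the number of genes in brackets. The median of the hedgehog targets is -1.16, while those of the G2/M and of the hypoxia and glycolysis lists are -0.36 and -0.43 with no coloured point.

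The dose response was tested directly, as 10 µM against 1 µM at 24 h. Of 16002 genes 373 differed (2.33%), 124 higher and 249 lower with 10 µM. Among the 15 called genes described here 2 differed, both farther from control at 10 µM. Gli1 went on from 16.9 ± 11.4 CPM with 1 µM to 1.71 ± 1.19 CPM with 10 µM (SD, n = 4 each; -3.23, adjusted p = 0.0280) and Clic6 from 1.83 ± 0.603 to 0.629 ± 0.464 CPM (-1.57, adjusted p = 0.0335). Gli1 lost this call without replicates 2, 3 or 4 (adjusted p up to 0.155), and Clic6 lost it in all 5 alternatives of the dose test (adjusted p up to 0.140).

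For the other 13 genes the step from 1 to 10 µM did not pass. For Runx3 the difference was 0.19 (95% interval -0.09 to 0.47, adjusted p = 0.523), for Foxc2 0.02 (interval -0.25 to 0.29, adjusted p = 0.970) and for Pcsk6 0.14 (interval -0.02 to 0.30, adjusted p = 0.383). For Ptch1 it was -0.27 (interval -0.53 to -0.02, adjusted p = 0.275) and for Ihh 0.36 (interval 0.12 to 0.59, adjusted p = 0.107). Gpnmb was near the threshold (0.68, adjusted p = 0.0516) and passed without replicate 2 (adjusted p = 0.0342). Cytl1 lay nearer to control at 10 µM (-0.36, interval -0.59 to -0.14, adjusted p = 0.0931). The dose test shares its 1 µM and control libraries with the main comparison, so it is not independent of the choice of these genes. The levels themselves were 10.2 ± 2.28 and 11.3 ± 2.11 CPM for Runx3, 27.5 ± 5.32 and 22 ± 1.63 CPM for Ptch1, and 104 ± 8.28 and 131 ± 18.4 CPM for Ihh at 1 and 10 µM (SD, n = 4 each). Ccnd1, which missed the threshold at 1 µM, differed between doses (-0.59, adjusted p = 0.0125), and so did Pthlh (-0.69, adjusted p = 0.0472).

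Against the same controls, 10 µM changed 1645 of 15508 genes (10.6%), and 14 of the 15 genes described passed there, all but Matn3 (0.75, adjusted p = 0.0674). Gli1 lost this call without replicates 2 or 4 (adjusted p = 0.0617 and 0.110) and Hhip without replicates 3 or 4 (adjusted p = 0.0599 and 0.110). Since the controls are shared, these values are given side by side only. Gli1 had -2.82 at 1 µM and -5.95 at 10 µM, Ptch1 -1.57 and -1.85, Ihh 1.51 and 1.86, and Runx3 -2.07 and -1.88. Other lists did hold genes that differed between doses, where 2.33% of all genes did. Of 22 G2/M genes 15 were lower with 10 µM than with 1 µM (median -0.49), and of 19 integrated stress response genes 10 were higher (median 0.81), against a median over control of -0.03 with 1 µM. Of 17 macrophage genes 8 were lower with 10 µM (median -0.98). No cartilage gene of 21 differed between doses, with 3 at an unadjusted p under 0.05.

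At 3 h, 1 µM changed 2 of 15446 genes (0.0129%): Gli1, lower (-0.57, SE 0.0744, adjusted p = 0.0065), and Mbnl3, an RNA-binding splicing factor, higher (0.64, adjusted p = 0.0420). Gli1 was therefore the 1 called gene that passed at both times. It had 64.8, 76.9, 55.9 and 45.0 CPM in the 3 h controls and 39.5, 53, 31.8 and 37.6 CPM with 1 µM, all pairs lower and the groups overlapping. This call was lost without replicates 1, 2 or 3 (adjusted p = 0.0531, 0.194 and 0.261) and without the replicate block (adjusted p = 0.928, the highest of its 5 alternatives), when the 3 h comparison called 0 genes. Ptch1 at 3 h had 65.6, 40.2, 43.0 and 31.6 CPM in controls and 52.3, 44.5, 30.1 and 45.5 CPM with 1 µM (-0.03, adjusted p = 0.964). Ihh had -0.07 (adjusted p = 0.871) and Runx3 -0.53 (adjusted p = 0.0667).

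The difference of the 1 µM effect between 24 h and 3 h was tested in 1 fit of 16 libraries. It passed for 9 of 16306 genes (0.0552%), and 8 of the 15 genes described here were among them. The effect was larger at 24 h for Ihh (difference 1.58, adjusted p = 0.000252), Ptch1 (-1.54, adjusted p = 0.000505), Runx3 (-1.54, adjusted p = 0.000505), Cytl1 (1.17, adjusted p = 0.000955) and Pcsk6 (1.04, adjusted p = 0.000955). It was also larger for Hhip, Matn3 and Bcl2, with differences of -1.63, 0.97 and -1.03. Of these 8 genes Ihh alone kept its call in all 5 alternatives of the time test. Without the replicate block it was lost by Ptch1, Runx3 and Cytl1 (adjusted p = 0.138, 0.0913 and 0.669, the highest of their alternatives), and without replicate 4 by Pcsk6 (adjusted p = 0.0805, the highest of its alternatives). Bcl2 lost it in 3 of the 5, Hhip in 4 and Matn3 in all 5 (adjusted p up to 0.691, 0.578 and 1.0). For Gli1 the difference of -2.24 did not pass (adjusted p = 0.203). Of its alternatives only that without replicate 1 passed (-2.71, adjusted p = 5.19e-06, up to 1.0 over all of them). Gpnmb had 1.52 at 3 h (adjusted p = 0.381), where its means were 0.876 CPM in controls and 2.08 CPM with 1 µM, and the difference between times was -0.04 with an interval of -1.15 to 1.06. The time test shares its 24 h libraries with the main comparison, so it is not independent of the choice of these genes.

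**Figure D5:**
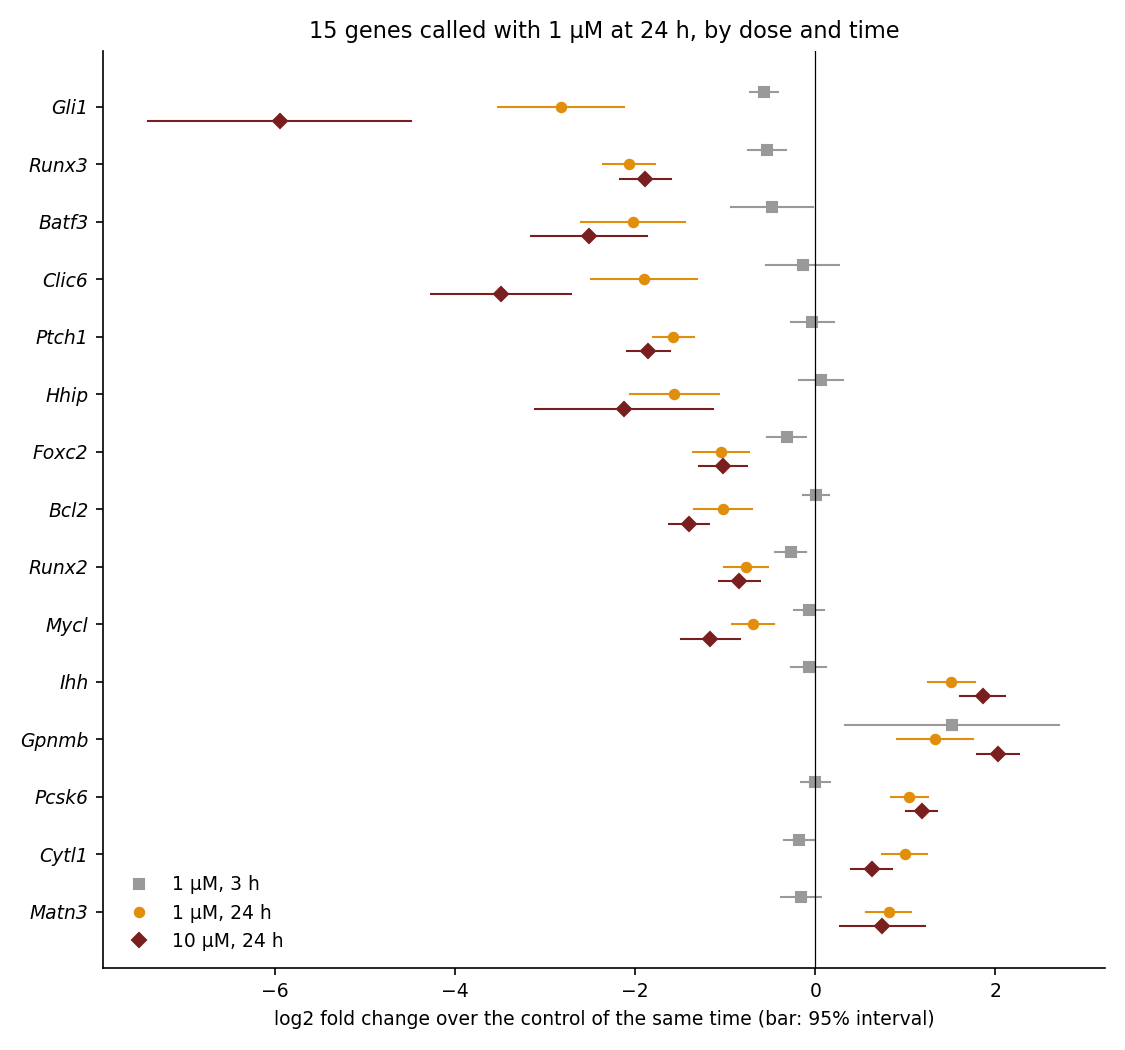
For each of the 15 genes, points are log2 fold changes over the control of the same time with 1 µM at 3 h (grey squares), 1 µM at 24 h (orange circles) and 10 µM at 24 h (dark red diamonds), with 95% intervals as bars. Gli1 steps from -0.57 to -2.82 and -5.95, while Runx3, at -2.07 and -1.88, has intervals that overlap between the doses.

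The count of called genes depended on which replicates entered. With replicates 2 or 4 left out it was 6, and with 1 or 3 left out 11. Runx3, Ptch1, Ihh and Pcsk6 kept their calls in each of those fits. The authors' deposited table lists 55 genes at an adjusted p under 0.05, 21 higher and 34 lower, of 14027 with an adjusted p. Of the 15 genes described here 12 are among the 55, all but Matn3, Mycl and Gpnmb. The 55 also hold Top2a, Kif11, Mcm7, Ccnd1, Kbtbd11 and Susd5, which did not pass here. Both tests used the same libraries, so the overlap is not independent evidence.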

How the data were processed

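Poly-A RNA was sequenced from each library, per the labels' protocols, which do not say whether strand was kept. Per the submitters' processing notes the build was mm10 and the tools were STAR 2.5, CASAVA 1.8, DESeq2 (listed as version 2) and HTSeq 0.6.1. The deposited tables hold raw read counts per gene, and the authors' own log2 fold changes and adjusted p-values, of which only gene counts and names are given. Another 56 columns of per-sample values were not used.

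Groups were taken from the labels. Totals of the 8 libraries were 14887622 to 19972395 counts. No replicates were near copies (lowest chi-square per degree of freedom 10.2). Counts were tested with edgeR 4.0.16 quasi-likelihood (robust, R 4.3.3), TMM scaling, filterByExpr (minimum count 10, minimum total 15) and replicate number as a block. Calls took a p under 0.05 after Benjamini-Hochberg adjustment over all genes tested. SE is the log2 fold change divided by the square root of F. Dose was tested in 12 libraries and time in 16, with the same block (within time for the latter). CPM scales counts to the library's total, and pair differences are of log2 CPM (prior count 2). The block was part of the planned design. Same-numbered libraries deviated together: residual correlations were 0.153 to 0.343 in the 4 pairs, over the bound of 0.1 in each. Control replicate 2 and 1 µM replicate 1, which differ in number, also passed this bound (0.114). The code was tested on simulated data.

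Named were called genes whose higher group averaged 50 counts or more and whose 4 pairs moved one way. They numbered up to 12 each way, filled to 8 by unadjusted p. Also named were hedgehog genes, and up to 4 called or 2 other members of 40 lists. Of the 16 called genes 1 is not reported here. Members and lists were chosen with earlier results of these data known. Alternatives were no block, RLE and upper quartile scaling, no or a stricter count filter, DESeq2 1.42.0, limma-voom 3.58.1, all 24 h libraries, and subsets of replicates. For 10 µM at 24 h and 1 µM at 3 h, the fits with no block or fewer replicates were chosen after seeing the data. The start-region windows are from RefSeq (GRCm38.p6).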

Additional observations from a re-analysis of the deposited data

Results flagged for a closer look

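In groups of 4, a sample was set apart when its gap to the nearest other sample, as a share of the group's range, passed Dixon's 95% limit, which chance does in about 1 in 20 groups. Of 78 groups (39 genes) 5 met this. Runx3 was highest in replicate 1 of both groups, at 58.6 CPM in the control (others 34.9 to 38.4) and 13.6 CPM with 1 µM (others 8.79 to 9.34). Gli1 was at 137.5 CPM in control replicate 2 (others 91.8 to 97.9) and at 33.9 CPM in 1 µM replicate 1 (others 9.88 to 12.5). Gas1, a hedgehog co-receptor gene, was at 428.7 CPM in control replicate 3 (others 589.9 to 605.1).

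The effect of 1 µM differed between 24 h and 3 h by a direct test for 9 genes, and values are given for 8. The log2 differences were 1.58 for Ihh, 1.17 for Cytl1, 1.04 for Pcsk6 and 0.97 for Matn3, which moved further up at 24 h. They were -1.54 for Ptch1, -1.54 for Runx3, -1.63 for Hhip and -1.03 for Bcl2, which moved further down. Of these 8 genes Ihh alone kept its call in all 5 alternatives, Ptch1, Runx3, Cytl1 and Pcsk6 lost it in 1, Bcl2 in 3, Hhip in 4 and Matn3 in 5.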

How the results depend on the processing

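All 15 called genes described here kept their direction in the 14 alternatives of the 1 µM comparison at 24 h, and 4 of them (Runx3, Ptch1, Ihh and Pcsk6) kept their calls in each. The count of 16 was 74 with no filter on low counts, 41 with DESeq2, 40 with all 12 libraries of 24 h, 26 with replicates 1 and 2 alone, 681 with replicates 3 and 4 alone, and 6 to 11 without 1 replicate. A blocked fit without 1 library equals one without its pair, so both were left out. Blocked fits of 2 replicates had 1 residual degree of freedom, against 3 in the main fit, so their counts are uncertain. With no replicate block the count was 12, of which 10 were among the 15 genes described, the dose test gave 161 genes instead of 373, the time test 3 instead of 9, 10 µM at 24 h 963 instead of 1645, and 1 µM at 3 h 0 instead of 2. Without 1 replicate these counts were 75 to 317 for dose, 4 to 11 for time, 694 to 2134 for 10 µM at 24 h and 0 to 409 for 1 µM at 3 h. The cause was not tested. Among genes that did not pass, the sign changed for Gli2 (-0.128 to 0.0313 without 1 replicate, 0.027 without replicate 2, 0.0073 without replicate 4, 0.0838 with replicates 1 and 2 alone), for Sufu (-0.0078 to 0.0678 without 1 replicate, -0.0012 without replicate 1), and for Scube3 (-0.0322), Gas1 (-0.0271) and Col2a1 (-0.14) with replicates 1 and 2 alone. All 22 G2/M genes stayed below 0 in each alternative. With replicates 1 and 2 alone, 5 of 18 G1/S genes lay above 0 instead of 0, and 9 of 21 cartilage genes below 0 instead of 4. Without replicate 1, 10 of 24 hypoxia and glycolysis genes lay above 0 instead of 1.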

Other observations

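Xist, the RNA of the inactive X chromosome, was at 0.319 CPM in 1 µM replicate 3 and at 138.8 to 693.1 CPM in the other 7 libraries at 24 h. The Y-linked gene Ddx3y was at 71.4 CPM in that library and at 16.4 to 55.8 CPM in the others.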
